A study of Homo sapiens with 14 samples.

Results

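MM.1S and RPMI8226 are established human multiple myeloma (MM) cell lines, and the regions described here were open in every library of MM.1S while no reference peak of RPMI8226 touched them. Chromatin accessibility was profiled by Omni-ATAC, which reads open DNA by where a transposase can insert adapters. The members were selected on the peak lists themselves. A member was an MM.1S reference peak on chromosomes 1 to 22 that was called in all 9 MM.1S libraries (a support of 9) and overlapped no RPMI8226 reference peak by 1 bp or more. These MM.1S-only peaks numbered 6850 of the 36818 MM.1S peaks of support 9, or 18.6%, and the other 29968 are called shared below. The lists held 72802 MM.1S and 79969 RPMI8226 reference peaks, 152771 regions in all.

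MM.1S cells were grown in 3 conditions with 3 libraries each. They were cultured alone (MONO), or with HS5, a human bone marrow stromal line, and then taken from the upper transwell (TSW), out of contact with HS5, or from the lower chamber (CO), in contact with it. RPMI8226 had 1 MONO, 2 TSW and 2 CO libraries. By the study's methods the MM cells were sorted as CD90-negative and CD38-positive, and a small remainder of HS5 cells was noted in the lower chamber. With support read as a count of libraries, a support of 9 includes the 3 MM.1S MONO libraries. Each line is a single immortalized line, so the comparison is of 2 lines and not of types of myeloma. The lists pool the conditions, hold no value for any single library and hold no read counts, so no difference between MONO, TSW and CO was measured. The RPMI8226 list required a call in 3 of its 5 libraries, so a region open in fewer of them counted as closed, and a region not open and a region not present in the RPMI8226 genome cannot be told apart.

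Open regions fall into promoters, which lie at transcription start sites (TSSs), and distal regions, many of which act as enhancers or insulators. Promoters of widely used genes are often rich in CpG dinucleotides and open in most cell types, whereas enhancers differ more between cells. Myeloma cells derive from plasma cells, which secrete antibody from rearranged immunoglobulin genes and depend on factors such as IRF4, PRDM1 and XBP1.

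The sequences of 7 members are shown first, because they come from genes with many members and from promoters with a member and no RPMI8226 peak. Not every gene with as many members is shown. Each is the central 200 bp of the widest member nearest the gene (TMEM121, TPTE, CELF2, DPP6 and CNTNAP2) or of its widest promoter member (CTNNA2 and IGLL5, and again CNTNAP2), read 5′ to 3′ on the forward strand of hg38. Capitals mark a match to 1 of the 22 motifs searched in the distal peaks.
TMEM121: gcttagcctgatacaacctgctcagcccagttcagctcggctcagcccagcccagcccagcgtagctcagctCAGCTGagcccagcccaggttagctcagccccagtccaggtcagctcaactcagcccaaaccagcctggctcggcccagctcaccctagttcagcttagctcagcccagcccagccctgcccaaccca
TPTE: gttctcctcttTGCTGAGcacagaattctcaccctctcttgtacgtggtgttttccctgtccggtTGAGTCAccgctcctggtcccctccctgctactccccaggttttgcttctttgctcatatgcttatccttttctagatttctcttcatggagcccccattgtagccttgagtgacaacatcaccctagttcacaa
CELF2: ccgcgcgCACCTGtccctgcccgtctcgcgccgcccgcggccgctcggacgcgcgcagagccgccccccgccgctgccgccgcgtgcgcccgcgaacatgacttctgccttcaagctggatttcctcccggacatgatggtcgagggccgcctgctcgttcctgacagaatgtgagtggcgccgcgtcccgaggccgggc
DPP6: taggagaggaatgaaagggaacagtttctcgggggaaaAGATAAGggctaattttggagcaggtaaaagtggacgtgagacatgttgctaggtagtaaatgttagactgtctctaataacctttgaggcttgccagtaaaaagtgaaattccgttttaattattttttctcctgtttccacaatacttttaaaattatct
CNTNAP2: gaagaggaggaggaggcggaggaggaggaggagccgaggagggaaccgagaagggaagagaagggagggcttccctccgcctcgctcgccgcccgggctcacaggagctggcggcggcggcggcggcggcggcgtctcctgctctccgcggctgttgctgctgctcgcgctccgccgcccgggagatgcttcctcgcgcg
CTNNA2: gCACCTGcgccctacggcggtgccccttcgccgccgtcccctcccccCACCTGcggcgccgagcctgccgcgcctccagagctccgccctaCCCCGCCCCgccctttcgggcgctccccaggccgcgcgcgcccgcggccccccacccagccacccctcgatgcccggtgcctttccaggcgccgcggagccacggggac
IGLL5: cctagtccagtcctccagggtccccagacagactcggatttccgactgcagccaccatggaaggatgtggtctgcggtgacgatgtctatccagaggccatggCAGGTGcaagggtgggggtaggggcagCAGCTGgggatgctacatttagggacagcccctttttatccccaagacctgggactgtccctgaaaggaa

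The TMEM121 window, chr14:105859138-105859337, was the middle of a 2601-bp peak inside the immunoglobulin heavy chain locus, 332655 bp from the TMEM121 start site and 315 bp from that of the microRNA gene MIR4537. The TPTE window (chr21:10640984-10641183) and the DPP6 window (chr7:153381186-153381385, in an intron) lay far from the genes that named them, at 119501 bp and 366848 bp. The CELF2 window, chr10:11017993-11018192, covered exonic sequence 127 bp downstream of a start site, and its 1395-bp peak had a GC content of 75.1%. The CNTNAP2 window (chr7:146116106-146116305) held no match to any of the motifs. The CTNNA2 window, chr2:79512681-79512880, held matches to an E-box and to the KLF/SP motif. The IGLL5 window was chr22:22885085-22885284, between genes. CELF2 encodes an RNA-binding splicing regulator, and CNTNAP2 and CTNNA2 neuronal adhesion proteins.

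The rule fixed the distance of members from RPMI8226 peaks, so the following values describe the choice. The nearest RPMI8226 peak was 89 bp away for the closest member, 12313 bp away at the median and 1134056 bp away for the farthest. An RPMI8226 peak stood within 500 bp of 146 members (2.13%) and within 1000 bp of 417 (6.09%), and none was found within 100000 bp of 504 (7.36%). On the other side of the rule, the smallest overlap of a shared peak was 17 bp, and 6 shared peaks were overlapped by 100 bp or less. The members had a median width of 653 bp (quartiles 496 and 866 bp), against 753 bp (553 and 1055 bp) for shared peaks. The MM.1S-only share also depended on support, since it was 67.5% among the 6115 MM.1S peaks of support 3, 39.2% among the 9396 of support 8 and 18.6% at support 9.

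To ask where the members lay relative to genes, a promoter peak was defined as one within 2500 bp of any annotated TSS, upstream or downstream. Members were less often promoter peaks than shared peaks were. Of the members, 2810 (41.0%, 95% Wilson interval 39.9 to 42.2%) were at promoters, against 15877 shared peaks (53.0%, 52.4 to 53.5%). The odds ratio was 0.617 (Woolf interval 0.585 to 0.651, Fisher's exact test, two-sided, p = 1.49e-71). With members and shared peaks compared within 5 width classes, the odds ratio was 0.789 (0.745 to 0.835). Put the other way, 15.0% of the 18687 promoter peaks of support 9 were members, and so were 22.3% of the 18131 distal peaks. Neighbouring peaks can depend on each other and there is a single list per line, so these intervals and p-values cover counting error only.

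The promoter members also differed in what they were near. A protein-coding TSS was within reach of 1762 promoter members (62.7%) and 11945 promoter peaks of the shared class (75.2%). A lncRNA TSS with no protein-coding one was near 15.7% and 12.4%, and other kinds of transcript alone, such as pseudogenes and immunoglobulin segments, were near 21.6% and 12.4%. The peak itself covered a TSS in 62.1% of promoter members and 75.8% of promoter shared peaks. A CpG observed-to-expected ratio of 0.6 or more, a common mark of CpG islands, was found in 51.9% of promoter members against 63.0%, and in 6.61% of distal members against 4.07%. The median GC content was close in both classes, at 61.0% and 61.6% at promoters and at 47.2% and 48.3% at distal sites.

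Distal members were mostly intronic. Of the 4040, 2427 (60.1%) had their midpoint in an intron, 220 (5.45%) in an exon and 1393 (34.5%) between genes, against 54.5%, 4.46% and 41.0% of distal shared peaks. Counted over all members, the midpoint lay within 2.5 kb of the nearest protein-coding TSS in 25.1%, against 39.2% of shared peaks. Members were more frequent than shared peaks in each farther class, and 323 of them (4.72%, against 2.15%) lay over 500 kb away. The median distance was 19684 bp for members and 8882 bp for shared peaks.

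**Figure D1:**
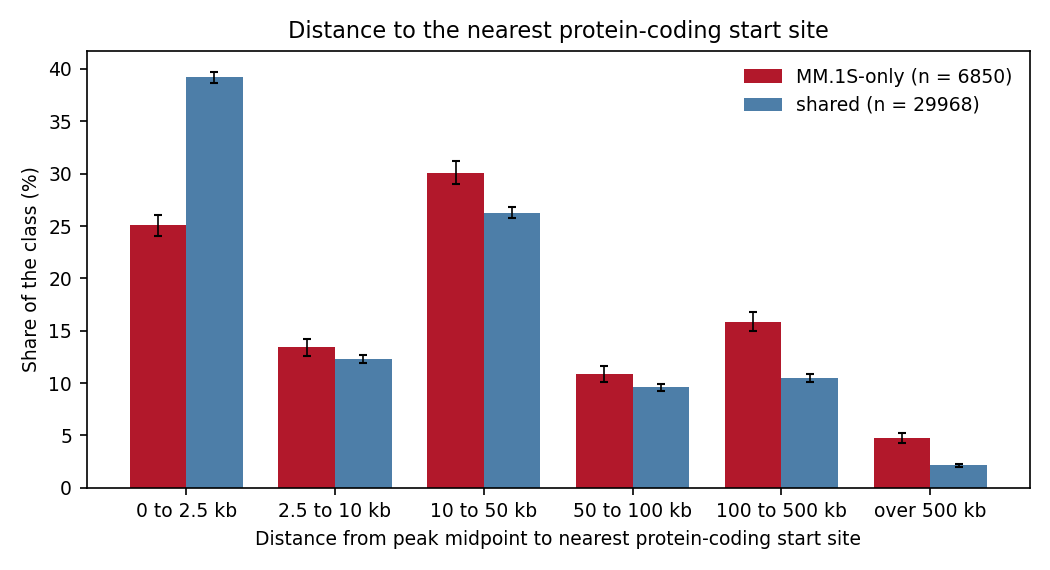
Share of MM.1S-only and shared peaks of support 9 (%, bars, with 95% Wilson intervals) by the distance from the peak midpoint to the nearest protein-coding start site. MM.1S-only peaks are fewer within 2.5 kb (25.1% against 39.2%) and more numerous in every farther class.

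The members reached the promoters of many genes whose promoter had no peak at all in RPMI8226. Among 18773 protein-coding genes, 1745 (9.3%) had a member at a promoter. For 974 of these genes, 5.19% of all protein-coding genes and 7.57% of the 12866 with any promoter peak of support 9, no RPMI8226 peak touched any of their promoters. Such promoters are called open in MM.1S alone below, a term that leaves out promoters whose MM.1S peaks had a lower support. For the other 771, RPMI8226 had a peak elsewhere in the promoter windows. Of the 974 genes, 839 had a member that covered an annotated TSS, 223 had no RPMI8226 peak nearest them at all, and 79.7% had a CpG ratio of 0.6 or more in their widest promoter member. The share of 51.9% given above is not a like measure. It counts every promoter member, also at the start sites of other transcripts, whereas 79.7% counts genes by their widest promoter member.

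Several of these promoters belonged to genes of the nervous system and of cell adhesion. XYLT1, a xylosyltransferase that starts glycosaminoglycan chains, had the most members, 11. Its promoter member covered no annotated TSS, with its midpoint 1246 bp from the XYLT1 start site, and stood 6074 bp from an RPMI8226 peak. CNTNAP2, CTNNA2, IGLL5, PTPRD and TENM3 had 8 members each. PTPRD, a receptor tyrosine phosphatase, was open at chr9:8857134-8858324, 34822 bp from an RPMI8226 peak. TENM3, a teneurin that guides neuronal wiring, was open at chr4:182143817-182145111, 3869 bp from an RPMI8226 peak. RPMI8226 had 49 peaks nearest TENM3, and MM.1S had 36 of any support. KCND2, a voltage-gated potassium channel, had 7 members and a 1738-bp promoter member that stood 147185 bp from any RPMI8226 peak. The zinc finger gene ZNF608 also had 7.

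Other promoters of the same kind were picked out after their values were seen. DKK1, a secreted WNT antagonist linked to bone disease in myeloma, had 5 members and 2 shared peaks nearest it, and its promoter member chr10:52313733-52315025 was 56036 bp from an RPMI8226 peak. CD44, a hyaluronan receptor, had 5 members and 5 shared peaks, and its promoter member (chr11:35138801-35140150) was 3863 bp from an RPMI8226 peak. TRPM1, a cation channel gene of the retina and of melanocytes, had 7 members. GDNF, a neurotrophic factor, and the ephrin receptor gene EPHA7 had 5 and 6, and the EPHA7 promoter member was 239955 bp from the nearest RPMI8226 peak.

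The 6850 members were spread over 4548 nearest protein-coding genes, of which 3198 had 1 member and 101 had 5 or more. TMEM121 led with 22 members and 11 shared peaks of support 9. Its members stretched over the immunoglobulin heavy chain locus, whose segments are annotated apart from protein-coding genes. TPTE on chromosome 21 followed with 12 members among 49 peaks, the nearest of them 120 kb from its TSS and the farthest 4414 kb away. OR11H1 on chromosome 22 had 7 members among 29 peaks, all of them at least 2915 kb away. Both names therefore stand for stretches far from the start site of the gene, and 9 of the 12 TPTE members had their midpoint in an annotated gene.

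CELF2 had 11 members against 10 shared peaks, and 9 of the members were distal. Of these 9, 7 lay in introns from 14618 bp to 96092 bp downstream of the nearest CELF2 start site. XYLT1 had 11 members against 6 shared peaks, 7 of them distal. CSMD1, a large gene for a complement-related membrane protein, had 10 members and 1 shared peak, although RPMI8226 had 13 peaks nearest it and touched its promoter. MYC, a transcription factor often activated in myeloma, had 10 members and 26 shared peaks. The MYC members lay between 9405 bp and 628737 bp from the TSS, and its promoter carried an RPMI8226 peak.

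The next genes in order were DPP6 (9 members, 10 shared peaks), then KCNMA1, MSI2, NEGR1, TENM4 and XPNPEP1 with 8 members each, beside those named above. KCNMA1 encodes a calcium-activated potassium channel, MSI2 an RNA-binding protein of stem cells, and NEGR1 a neuronal adhesion molecule. All 8 NEGR1 members were distal, as were 7 of 8 of KCNMA1 and of MSI2, and in all 3 genes RPMI8226 had a peak at a promoter. ASAP1, CHMP4B, ELMO1, FOXP1, PCDH7 and SEPTIN9 had 7 members each. FOXP1, a forkhead factor of the B cell lineage, had as many shared peaks as members, 7, and its promoter was open in RPMI8226 as well.

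**Figure D2:**
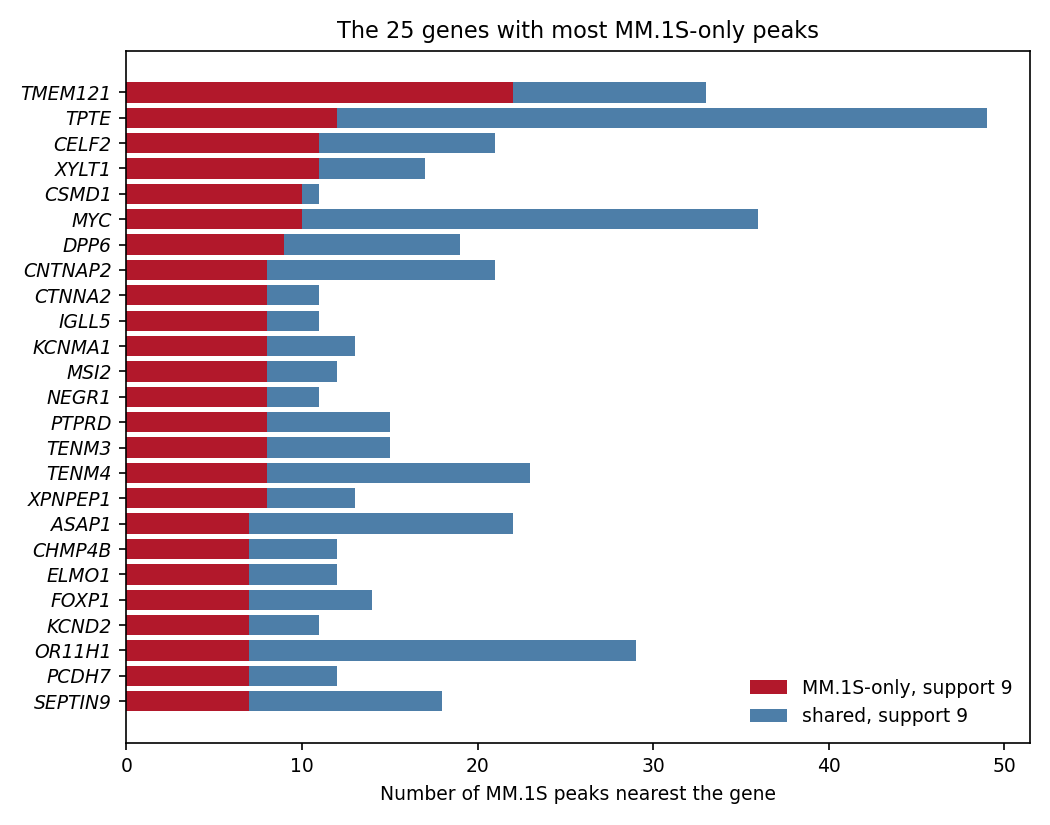
Number of MM.1S peaks of support 9 nearest each of the 25 protein-coding genes with the most MM.1S-only peaks, split into MM.1S-only and shared peaks. TMEM121 has 22 MM.1S-only peaks, and CSMD1 has 10 with only 1 shared peak, whereas shared peaks outnumber them at TPTE and MYC.

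The immunoglobulin loci held members of a particular kind. In the heavy chain locus (IGH, chr14:105583731-106879812) 21 of the 25 peaks of support 9 were members, in the lambda locus (IGL, chr22:22026076-22923034) 20 of 51, and in the kappa locus (IGK, chr2:88857161-90235370) 4 of 8. RPMI8226 had 10 peaks in IGH, 41 in IGL and 25 in IGK, so it was not without peaks in any of them. In IGH all RPMI8226 peaks lay toward the constant-region end. No RPMI8226 peak was found from chr14:105738442 to the end of the chromosome, a stretch with 51 MM.1S peaks of any support and 20 members. Those members were 335 to 2601 bp wide, and the farthest was 1134056 bp from an RPMI8226 peak.

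At the level of segments, 38 of 189 immunoglobulin segments outside the orphon sites had a promoter peak of support 9, 22 had a member, and 19 had a member and no RPMI8226 promoter peak. Of these 19, 11 were in IGH, 2 in IGK and 6 in IGL. They included IGHM and IGHG1, the constant regions of IgM and of a subclass of IgG, and variable segments such as IGHV3-30, IGHV4-34, IGKV3-20 and IGLV1-44. The annotated start of every segment was counted as a TSS, that of constant regions included. Whether transcription begins at these starts was not tested. Variable segments resemble each other closely, so the assignment of a peak to 1 of them is uncertain. In IGL, 8 members filled chr22:22818855-22897356 without an RPMI8226 peak between them. The last of these, chr22:22894674-22897356, was 2683 bp wide, lay 640 bp from the start of the constant-region segment IGLC1 and was the second widest of all members.

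Members also stood side by side elsewhere. The 6850 members formed 5022 runs, where a run is a set of consecutive peaks of support 9 that were all members, and 49 runs held 5 or more. The longest were the IGH run of 20 (chr14:105741593-106873392), a run of 9 over 1133 kb of chromosome 4 around GUCY1A1, GUCY1B1, MAP9, LRAT, NPY2R and RBM46 (chr4:154626739-155759940), and runs of 8 at IGLL5, at DLG5 and KCNMA1 (chr10:77683057-77913175) and in CSMD1. GUCY1A1 and GUCY1B1 encode the subunits of soluble guanylate cyclase, the receptor for nitric oxide. A run is counted over peaks of support 9 only, and RPMI8226 had 6 peaks between the members of the chromosome 4 run, 2 within the chromosome 10 run and 10 within the CSMD1 run. At 13 intervals free of any RPMI8226 peak there were 5 or more members, 91 in all. They included 7 at the chemokine genes CCL3L3 and CCL4L2 and the TBC1D3 family on chromosome 17 (chr17:36149238-36450083), which exist in near-identical copies, and 6 nearest MSI2.

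The 5 widest members were at BASP1 (2793 bp, chr5:17216209-17219001), in IGL as above, at ZNF804A (2606 bp, chr2:184597488-184600093), in IGH (2601 bp) and at SOX4 (2547 bp, chr6:21593453-21595999). All 5 were promoter peaks. BASP1 encodes a membrane protein of growing axons and SOX4 a transcription factor of progenitor cells. An RPMI8226 peak was 4357 bp away at BASP1, 46166 bp away at ZNF804A and 3919 bp away at SOX4.

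To describe the functions of the nearest genes, 33 lists of protein-coding genes were counted, each as the MM.1S-only share of the peaks of support 9 nearest its genes. The background was 18.6% over all genes. Of 32 lists with 20 or more such peaks, 22 had a share above it, and the 95% Wilson interval lay above it for 12 and below it for 1. With peaks assigned to the nearest TSS of any gene instead, it lay above for 5 and below for 3 of the 27 lists that still had 20 peaks. The stromal, endothelial, HOX, SOX and T-box lists had too few, and cadherins (15.6 to 50.9%), receptor tyrosine phosphatases (18.5 to 40.8%) and FOX genes (18.2 to 40.2%) no longer lay above. No test was made of any list, because the members and lists were chosen with results known. The median number of members was 0 per gene over all protein-coding genes.

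The endothelial list, described with the other cell type markers, had the highest share, and HOX and neuronal genes came next. Of the 32 peaks nearest HOX genes, the homeobox genes that pattern the body axis, 16 (50.0%, interval 33.6 to 66.4%) were members. They lay in all 4 clusters, and 13 were promoter peaks. Of the 20 HOX genes with a promoter peak of support 9, 7 (35.0%, beside 7.57% over all genes) had a member at a promoter without an RPMI8226 peak, among them HOXA7, HOXA10, HOXB2, HOXB8, HOXC9 and HOXD1. HOXB8 carried a member of 2445 bp, 1693 bp from an RPMI8226 peak, and HOXD1 a member of 1420 bp, 80113 bp from an RPMI8226 peak.

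Of the 174 peaks nearest 32 genes of neuronal adhesion and synapses, 72 (41.4%, 34.3 to 48.8%) were members, and the median gene had 2. CNTNAP2, CNTN4, GRIK2, NCAM2, NLGN1, NRXN3, SDK1 and SNAP25 were open at the promoter in MM.1S alone, 8 of the 17 with any promoter peak of support 9. CNTNAP4 and SDK2 had a promoter peak in RPMI8226 only. CNTN4, a contactin, and GRIK2, a glutamate receptor subunit, had 3 members each and no shared peak of support 9. RPMI8226 nevertheless had 9 peaks nearest CNTN4 and 14 nearest GRIK2. Cadherins followed with 37 of 94 peaks (39.4%, 30.1 to 49.5%), led by CDH2 and CDH6 with 4 members each and no shared peak. RPMI8226 had 9 peaks nearest CDH2 and 12 nearest CDH6. CDH2, or N-cadherin, had a promoter member of 2521 bp at chr18:28176019-28178539. Protocadherins had 24 of 64 (37.5%), receptor tyrosine phosphatases 36 of 111 (32.4%), SOX genes 18 of 56 (32.1%), collagens 23 of 75 (30.7%), voltage-gated channels 95 of 338 (28.1%) and FOX genes 45 of 165 (27.3%). T-box genes (10 of 29, 34.5%), olfactory receptors (33 of 127, 26.0%) and the endothelial list below make up the 12 lists whose interval lay above the background.

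Distal position differed between the lists as well. Distal peaks made up 79.3% of those near the neuronal genes and 74.5% of those near cadherins, and 22.3% of all distal peaks were members. Among distal peaks alone, an alternative added after the data were seen, the interval lay above 22.3% for 5 of 29 lists. These were the endothelial list (12 of 21 distal peaks were members, 57.1%), neuronal adhesion (39.9%), cadherins (40.0%), receptor tyrosine phosphatases (35.4%) and FOX genes (31.5%). The HOX list had only 7 distal peaks and too few to be counted there.

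Marker genes of cell types were counted in the same way, from lists chosen with earlier results known. The counts describe the peaks near these genes and are no test of what kind of cell the peaks came from. Of the 19 plasma cell genes counted, all 19 had a promoter peak in both lists, and 15 of the 117 peaks nearest them (12.8%, 7.93 to 20.1%) were members. None of their promoters was open in MM.1S alone. PRDM1 alone had 5 members beside its 17 shared peaks, whereas IRF4, XBP1, CD38 and MZB1 had none. Of 24 B cell genes, CD24, CD79B and EBF1 were open at the promoter in MM.1S alone. EBF1, an early B cell factor, had 2 members, and CD79B, a chain of the B cell receptor, had 1. Of the 24, 13 had a promoter peak in both lines, and CXCR5 and FCER2 had one in RPMI8226 only.

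Markers of the stroma were read with HS5 in view. Of 25 stromal genes, PDGFRA, SPARC, LOX and TWIST1 had a member and no RPMI8226 peak at the promoter, and 11 of the 48 peaks nearest the list (22.9%, 13.3 to 36.5%) were members. COL1A1 and COL1A2 had a promoter peak in both lines and COL5A1 in RPMI8226 only. LUM, POSTN and TAGLN had no peak of either line nearest them. With support read as a count of libraries, the members near this list were also called in the 3 MONO libraries, grown without HS5. The part of HS5 cells in the peaks near the list was not tested. Of 20 endothelial genes, 10 had a member nearest them, beside 4548 of all 18773 protein-coding genes. Of the 32 peaks nearest the list, 17 (53.1%) were members, but 11 of the 20 genes had no promoter peak in either line. CD93 held 5 of the 17, EMCN 3 and ERG 2, and CD93, a cell surface lectin-like receptor, was the only one with a member at a promoter without an RPMI8226 peak. THBD, which stands beside CD93, and KDR had an MM.1S promoter peak that was no member and no RPMI8226 one. CDH5, PECAM1, ESAM and NOS3 had a promoter peak in both lines, and LYVE1 and SOX18 had one in RPMI8226 only. EMCN, ERG and VWF were among the 11 with none at the promoter, and VWF had 4 shared peaks nearest it. TEK, TIE1 and ROBO4 had no peak of either line nearest them.

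Among 25 T and NK cell genes, EOMES and LEF1 (3 members each) and CD7 (1 member) had promoters open in MM.1S alone. CD4 and CD8B had a promoter peak in RPMI8226 only, 8 genes had one in both lines and 10 in neither. Of the 71 peaks nearest the list, 17 (23.9%) were members. Of 20 myeloid genes none was open at the promoter in MM.1S alone, and 2 of 19 peaks were members. The promoters of 5 (CD33, CEBPA, LILRB4, LYZ and S100A8) had an RPMI8226 peak and no MM.1S one. Another 9 had a promoter peak in both lines and 6 in neither. In a list of 12 cyclin D genes and genes of recurrent myeloma translocations and their targets, 10 had a promoter peak in both lines. FGFR3 (1 member, no shared peak and 3 RPMI8226 peaks nearest it) was open at the promoter in MM.1S alone. CCND1, CCND2, CCND3 and NSD2 had no member.

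Among signalling genes, CCL3, CCL3L3, CCL4L2, CCL28, CXCL3 and XCR1 had promoters open in MM.1S alone. They were 6 of 20 chemokine and receptor genes with a promoter peak of support 9 (30.0%, beside 7.57% over all genes). Of the peaks near the list, 18 of 106 (17.0%) were members. The interleukin list had IL12B (4 members), IL4, IL11RA, IL18R1 and IL20RA in that state and 26 of 150 peaks (17.3%) as members. The TNF list had LTA alone and 15 of 90 (16.7%). A promoter peak in RPMI8226 and none of any support in MM.1S was found at 7 of 60 chemokine, 3 of 78 interleukin, 3 of 41 TNF and 1 of 26 integrin genes. Over all protein-coding genes it held for 610 of 18773. It took RPMI8226 peaks of any support, so its counts cannot be set directly against those that required an MM.1S support of 9. Integrins had 18 of 67 peaks (26.9%), with ITGA2, ITGA7 and ITGA8 open at the promoter in MM.1S alone.

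Housekeeping genes stood at the other end. Of the 125 peaks nearest ribosomal protein genes, 7 (5.60%, 2.74 to 11.1%) were members, and of the 56 nearest proteasome subunits, 5 (8.93%, 3.87 to 19.3%). No gene of either list had a promoter open in MM.1S alone, of 77 and 36 with a promoter peak of support 9. For the remaining lists the interval held the background value. They included adhesion and orphan G protein-coupled receptors (23.8%), sialyltransferases (23.5%), semaphorins and plexins (23.1%), histone genes (21.1%), the myeloma list (21.7%), B cell genes (21.5%), solute carriers (16.8%), zinc finger ZNF genes (16.5%), WNT and FZD genes (16.2%) and ABC transporters (14.3%).

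**Figure D3:**
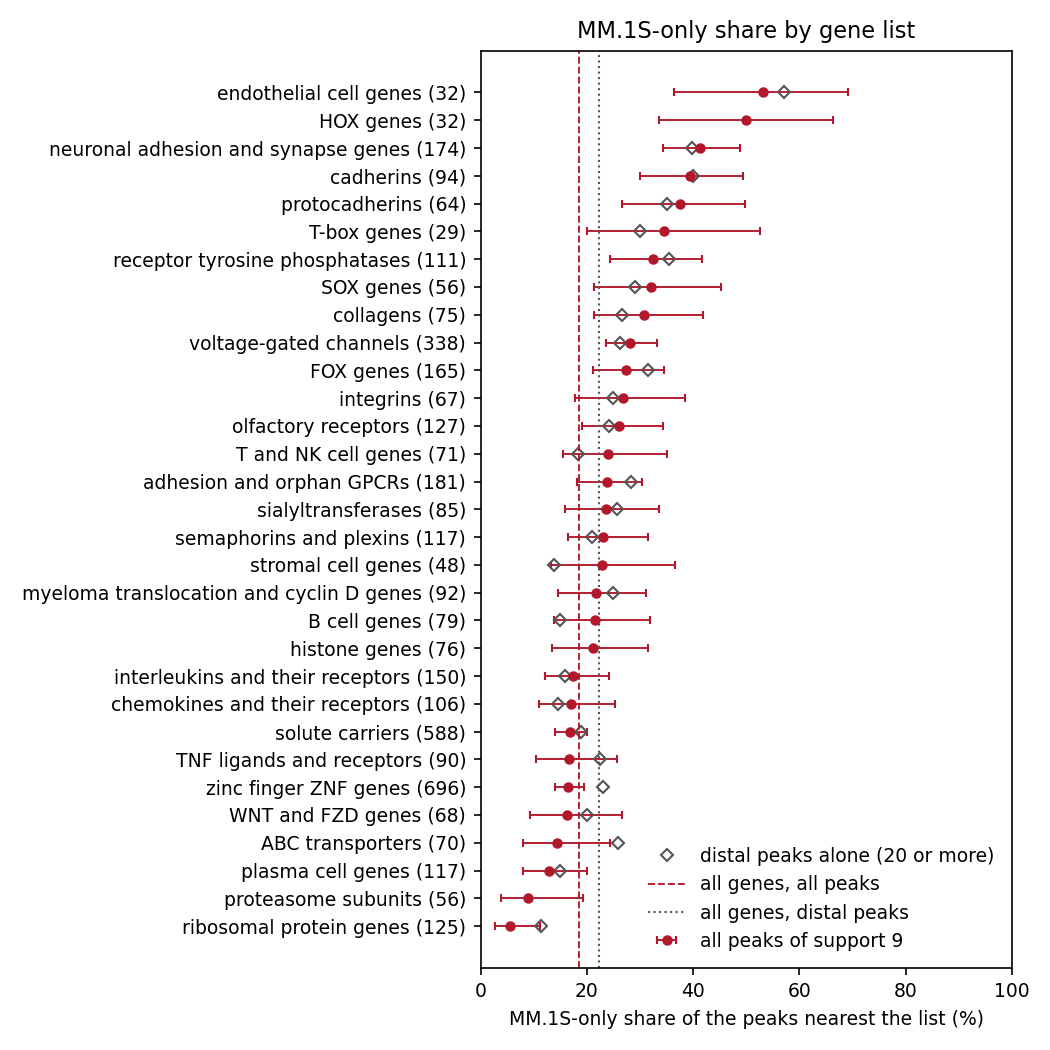
MM.1S-only share (%) of the peaks of support 9 nearest the genes of the lists, with 95% Wilson intervals and the number of peaks in brackets, and the share among distal peaks alone as open diamonds. Dashed and dotted lines mark the shares over all genes, 18.6% for all peaks and 22.3% for distal peaks. The endothelial list and the HOX list stand at 53.1% and 50.0%, and ribosomal protein genes at 5.60%.

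The middle 200 bp of each distal peak was searched on both strands for motifs, to see which binding sites set members apart. Of 22 motifs, 2 were more frequent in the 4040 distal members than in the 14091 distal shared peaks and 5 were less frequent (Fisher's exact test, two-sided, Benjamini-Hochberg adjusted over the 22). The octamer ATGCAAAT, bound by POU2F1 and POU2F2, which act with POU2AF1 in the B cell lineage, was found in 130 members (3.22%) and 1.85% of shared peaks. Its odds ratio was 1.76 (1.42 to 2.18, Fisher's exact test, adjusted p = 2.38e-06). The GATA motif AGATAAG was found in 123 members (3.04%) and 2.02% of shared peaks, with an odds ratio of 1.52 (1.23 to 1.88, exact adjusted p = 5.78e-04).

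The motif of AP-1, the FOS and JUN dimer (TGACTCA or TGAGTCA), was found in 217 members (5.37%) and 10.6% of shared peaks, with an odds ratio of 0.481 (0.415 to 0.557, exact adjusted p = 1.97e-24). The motif of the insulator protein CTCF was found in 75 members (1.86%) and 4.77% of shared peaks, with an odds ratio of 0.378 (0.297 to 0.481, exact adjusted p = 6.55e-18). The composite of an ETS factor and an IRF, which is GGAA, any 2 bases and GAAA, was found in 2.62% and 4.95%, with an odds ratio of 0.517. The PU.1 motif GAGGAAGT was found in 1.93% and 3.53%, with an odds ratio of 0.537, and the NF-kB motif in 5.22% and 6.97%, with an odds ratio of 0.736. Over all distal peaks of support 9, the octamer was in 2.16%, the GATA motif in 2.25%, AP-1 in 9.40%, CTCF in 4.12%, the ETS and IRF composite in 4.43%, PU.1 in 3.18% and NF-kB in 6.58%. These differences held within classes of GC content and of width. Among peaks of at least the median width those of the octamer, GATA, CTCF and PU.1 motifs no longer passed the threshold. The CTCF odds ratio also depended on the overlap rule. It was 0.791 (0.674 to 0.928) where only RPMI8226 peaks of support 5 counted. Where a shared peak had to be covered by 50%, it was 0.615 (0.522 to 0.725).

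The other 15 motifs did not pass it. They were the cyclic AMP response element (TGACGTCA), the MAF site flank TGCTGAC, the same with a final C or G, the ETS motif CCGGAAGT, RUNX (TGTGGTTA or TGTGGTTT), the interferon response element (GAAA, any 2 bases and GAAA), the composite of AP-1 and IRF (TGANTCA, any 4 bases and GAAA), MEF2, the E-boxes CAGCTG and CAGGTG, STAT (TTCCNGGAA), ATF and CEBP (TGATGNAA), forkhead (TGTTTAC), KLF/SP (GGGGCGGGG) and NRF1 (GCGCA, any base and GCGC). The NRF1 motif had the highest odds ratio, 2.01 (1.14 to 3.54), from 19 members, with an adjusted p of 0.0512 by the exact test. Its odds ratio was 2.36 within GC classes and 2.18 within width classes, and both passed the threshold. The interval for the E-box CAGGTG was 0.953 to 1.11, the narrowest of the 15, and it was found in 31.2% of distal members. A site can match several of these motifs, since the AP-1 motif is part of its composite with IRF and the PU.1 and ETS motifs share their core. Over all distal peaks the E-boxes were the most frequent of the 15, with CAGGTG in 30.8% and CAGCTG in 17.9%, and the others were found in 0.232% (the cyclic AMP response element) to 14.1% (the MAF flank ending in C or G). No match at all was found in 1153 distal members (28.5%). A match shows only that the letters are present.

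**Figure D4:**
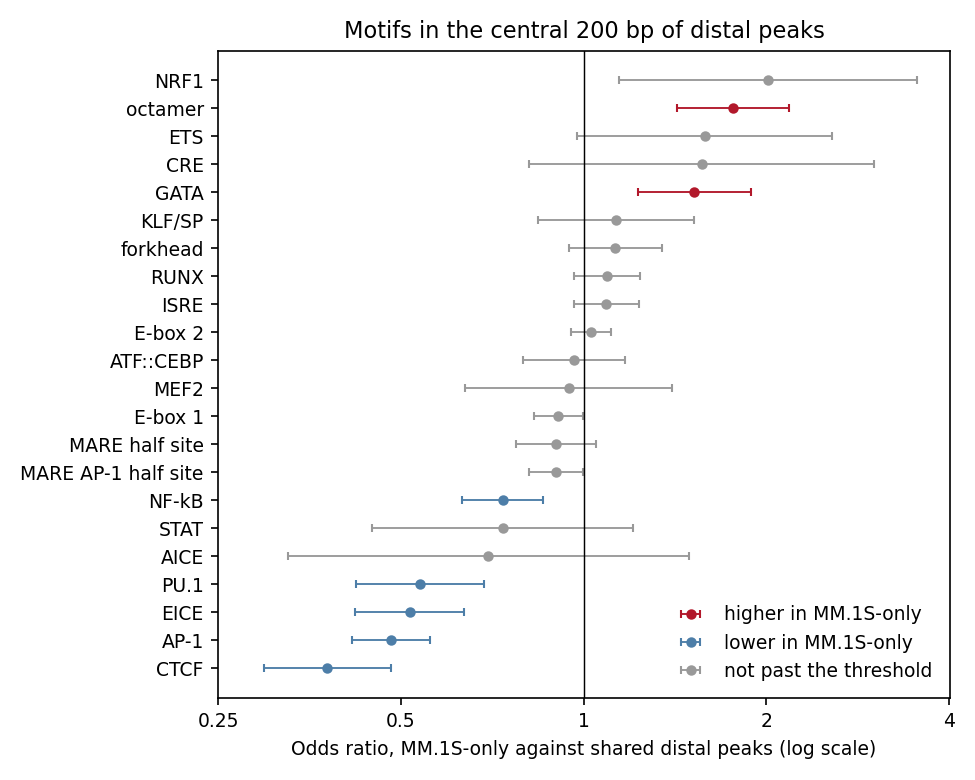
Odds ratio (log scale, with 95% Woolf intervals) of a motif match in the central 200 bp of MM.1S-only against shared distal peaks, where E-box 1 and E-box 2 are CAGCTG and CAGGTG. The octamer (1.76) and GATA (1.52) are higher in MM.1S-only peaks, and NF-kB, PU.1, the ETS and IRF composite (EICE), AP-1 and CTCF are lower.

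The share of peaks that were members differed between chromosomes. Its median over the 22 chromosomes was 18.9% (SD 3.44), and it ran from 13.1% (11.4 to 15.0%) on chromosome 16 to 26.4% (24.3 to 28.5%) on chromosome 4. The interval lay above 18.6% on chromosomes 4, 7, 8, 10 and 18 and below it on chromosomes 1, 3, 16, 17 and 19. On chromosome 4, 23.1% of promoter peaks and 28.7% of distal peaks were members, against 15.0% and 22.3% over all chromosomes, and on chromosome 16 the shares were 9.52% and 18.8%. On every chromosome the distal share was above the promoter share, by as little as 1.40 percentage points on chromosome 18.

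**Figure D5:**
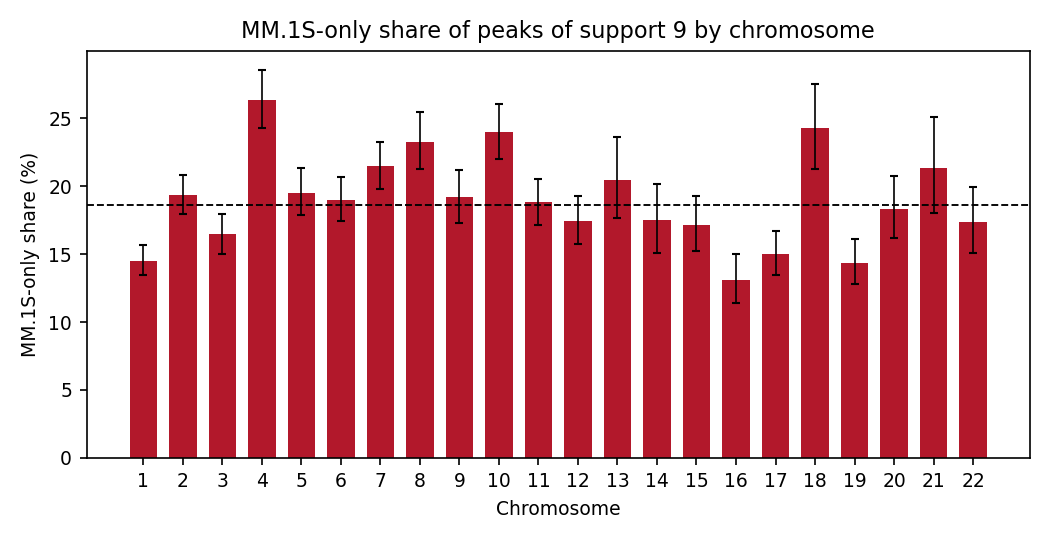
MM.1S-only share (%) of the peaks of support 9 on each chromosome (bars, with 95% Wilson intervals), and the share over all 22 as a dashed line at 18.6%. Chromosome 4 is highest at 26.4% and chromosome 16 lowest at 13.1%.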

How the data were processed

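Omni-ATAC libraries of MM.1S (9) and RPMI8226 (5) were grouped by line and culture condition from their titles. Per the methods, the authors mapped reads to hg38 (Bowtie2), dropped those with several positions and all but 1 per position, called peaks per library with MACS3 and kept reference peaks found in at least 3 libraries. Versions are not given in the sources used here. Beside the position of each peak, the deposited lists give 1 whole number, in a unit other than reads, that ran from 3 to 9 and from 3 to 5 and was read as support. The lists hold no depth, and the read totals that the study gives per library were not used here.

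Starts were taken as counted from 0 and are printed from 1. GENCODE release 44 gave TSSs and genes on hg38, and sequence was read from hg38. A peak's gene was the protein-coding gene with the TSS nearest its midpoint. Members and lists were chosen with earlier results of these data known. Genes named were the 25 with most members and, for each list, those with a member and no RPMI8226 peak at the promoter (up to 4 with most members, and further ones for the HOX, neuronal, chemokine and interleukin lists), beside the 5 longest runs, the 5 widest members and genes said to be picked later. Some items under these rules are not reported here. Shares have 95% Wilson intervals and odds ratios Woolf intervals. Fisher's exact test compared members with shared peaks for promoters and for 22 motifs in the central 200 bp, adjusted by Benjamini-Hochberg at 0.05. Code for overlaps and tests was tested on simulated data. Python 3.11.15, pandas, numpy and scipy were used. Alternatives changed the support, the overlap rule, the width, the promoter window, the motif window and the gene assignment.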

Additional observations from a re-analysis of the deposited data

Results flagged for a closer look

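Chromosome X lay outside the rule for members. Of its 1015 MM.1S peaks of support 9, 219 overlapped no RPMI8226 peak (21.6%, 95% Wilson interval 19.2 to 24.2%). The share over chromosomes 1 to 22 was 18.6%. The chromosome X value drew attention because these regions entered no other comparison of the report. The groups of libraries carry no value of their own in the lists, so no library could be set apart from the others.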

How the results depend on the processing

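The promoter odds ratio stayed below 1 and past the threshold under all 10 alternatives, from 0.521 to 0.789. The number of members was 10529 with a support of 8 or more, 10318 where only RPMI8226 peaks of support 5 counted, 11721 where a shared peak had to be covered by 50%, and 2670 among peaks of median width or more. Of 22 motifs, the number lower in members rose from 5 to 9 over whole peaks, 8 with RPMI8226 support 5 and 10 with 50% covered, and the number higher, 2 as reported, was 3 over whole peaks and within GC or width classes and 0 at median width or more, where fewer peaks were tested. The lists above and below the background, 12 and 1 as reported, were 5 and 3 with the nearest TSS of any gene, and 5 and 0 for distal peaks, an alternative chosen after seeing the data. Lists below were 3 with support of 8 or more, 3 with RPMI8226 support 5, 2 with no RPMI8226 peak within 1000 bp and 3 with 50% covered. The cause was not tested except where stated.

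Motif odds ratios changed direction 17 times, all for motifs that had not passed the threshold. Over whole peaks they were 0.986 (ETS), 0.973 (E-box CAGGTG) and 0.895 (KLF/SP). With a support of 8 or more the E-box CAGGTG had 0.998. With RPMI8226 support 5 they were 0.997 (RUNX), 1.26 (MEF2), 0.982 (E-box CAGGTG), 1.01 (STAT), 1.05 (ATF and CEBP) and 0.992 (KLF/SP). With 50% covered they were 0.943 (RUNX) and 0.838 (E-box CAGGTG, adjusted p = 4.16e-07 by Fisher's exact test). At median width or more they were 0.775 (RUNX), 1.17 (AP-1 and IRF composite), 0.999 (E-box CAGGTG), 0.951 (forkhead) and 0.692 (KLF/SP). There, the octamer, GATA, CTCF and PU.1 kept their direction, at 1.36, 1.34, 0.609 and 0.730, but did not pass the threshold.

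No paired analysis was possible because the lists hold no value for a single library, and no replicate was left out for the same reason. The lists hold no read counts, so how many RPMI8226 regions were missed at the depth of its libraries was not tested.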
